A study of Homo sapiens with 4 samples.

Results

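The H3K27Ac peaks of chromosome 6 were taken from the peak lists of MOLM13 cells, a human acute myeloid leukemia line that carries the MLL-AF9 fusion. All peaks on this chromosome were members: 12190 of 86207 peaks in cells given 500 nM SNDX-50469 plus 500 nM OTX015 for 16 hours (the combination), and 5434 of 55852 peaks in cells given 500 nM OTX015 alone for 16 hours. SNDX-50469 is a Menin inhibitor and OTX015 a BET inhibitor, so the BET inhibitor was present in both groups. The arms were split at the centromere, just below 60 Mb in GRCh38, which left 5978 combination and 2683 OTX015 peaks on the short arm (6p) and 6212 combination and 2751 OTX015 peaks on the long arm (6q). There was 1 H3K27Ac library per treatment, so no difference between the treatments has a replicate check and no test was run. Cells given DMSO or SNDX-50469 alone, and the input libraries, were not analysed here. The mark is spelled H2K27Ac in the titles of the samples, but the antibody was against H3K27Ac.

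H3K27Ac is acetylation of lysine 27 of histone H3, which marks active promoters and enhancers. BET proteins read acetylated histones through their bromodomains, and OTX015 occupies that pocket. Menin tethers MLL and MLL fusion proteins to their target genes, and SNDX-50469 blocks this tether. Chromosome 6 carries the MHC, the large histone gene cluster and the TNF locus on its short arm, and MYB, a transcription factor that acute leukemia cells depend on, on its long arm.

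Promoter sequences are shown for 10 genes on which the results turn. MSH5, PBX2 and EEF1A1 had promoter peaks among the 5 of highest fold on their arm in both lists. MYB is an MLL fusion target on the long arm, and H4C7, H2AC4 and HLA-DMB stand for the histone and HLA genes. SENP6, PHF10 and IFNGR1 were added after their values were seen, because the cover of their starts differed strongly between the lists. Each run is the 250 bases before the gene start in GRCh38.p14, 5′ to 3′ on the gene's strand, from RefSeq. Capitals mark matches, on either strand, to CCAAT (the CCAAT box), GGGCGG (the GC box), CACGTG (the E-box), TATAAA (the TATA box), CCGGAA (the ETS core) and TGACGT (the cyclic AMP response core). Where the capitals run longer than 1 motif, matches overlap or touch.
MSH5: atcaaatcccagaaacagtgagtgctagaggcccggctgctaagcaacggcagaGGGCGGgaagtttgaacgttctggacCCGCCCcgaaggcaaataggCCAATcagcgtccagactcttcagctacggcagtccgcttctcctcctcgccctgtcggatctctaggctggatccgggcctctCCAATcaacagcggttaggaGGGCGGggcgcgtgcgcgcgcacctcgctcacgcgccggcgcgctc
PBX2: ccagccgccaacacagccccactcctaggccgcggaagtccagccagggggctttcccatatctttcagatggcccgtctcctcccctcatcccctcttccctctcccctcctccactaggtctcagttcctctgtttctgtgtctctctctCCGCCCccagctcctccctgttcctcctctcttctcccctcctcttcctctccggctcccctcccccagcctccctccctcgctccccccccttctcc
EEF1A1: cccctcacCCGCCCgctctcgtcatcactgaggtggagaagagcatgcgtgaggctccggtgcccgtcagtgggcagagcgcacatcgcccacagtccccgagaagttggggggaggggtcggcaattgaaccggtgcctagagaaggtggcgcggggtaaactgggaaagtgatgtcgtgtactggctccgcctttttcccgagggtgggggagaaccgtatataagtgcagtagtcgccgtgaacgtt
SENP6: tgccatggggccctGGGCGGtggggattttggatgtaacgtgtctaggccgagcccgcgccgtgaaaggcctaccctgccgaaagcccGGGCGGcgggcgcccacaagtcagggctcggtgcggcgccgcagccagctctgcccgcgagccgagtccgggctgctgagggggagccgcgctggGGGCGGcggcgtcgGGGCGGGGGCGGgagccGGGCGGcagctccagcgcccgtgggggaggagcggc
PHF10: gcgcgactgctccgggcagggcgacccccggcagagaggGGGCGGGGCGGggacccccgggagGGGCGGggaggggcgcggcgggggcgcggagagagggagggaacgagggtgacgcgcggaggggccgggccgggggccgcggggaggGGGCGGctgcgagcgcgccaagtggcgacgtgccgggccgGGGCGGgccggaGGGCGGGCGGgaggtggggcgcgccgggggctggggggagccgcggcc
MYB: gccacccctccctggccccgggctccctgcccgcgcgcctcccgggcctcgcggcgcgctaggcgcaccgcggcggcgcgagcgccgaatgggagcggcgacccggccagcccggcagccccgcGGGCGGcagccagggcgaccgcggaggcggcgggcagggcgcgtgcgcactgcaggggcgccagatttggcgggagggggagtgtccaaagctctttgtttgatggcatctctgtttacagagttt
IFNGR1: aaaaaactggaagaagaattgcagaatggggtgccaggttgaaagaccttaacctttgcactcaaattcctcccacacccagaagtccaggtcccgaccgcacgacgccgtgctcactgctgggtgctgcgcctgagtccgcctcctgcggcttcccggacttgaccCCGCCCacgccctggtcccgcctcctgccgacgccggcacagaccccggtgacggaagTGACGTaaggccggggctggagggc
H4C7: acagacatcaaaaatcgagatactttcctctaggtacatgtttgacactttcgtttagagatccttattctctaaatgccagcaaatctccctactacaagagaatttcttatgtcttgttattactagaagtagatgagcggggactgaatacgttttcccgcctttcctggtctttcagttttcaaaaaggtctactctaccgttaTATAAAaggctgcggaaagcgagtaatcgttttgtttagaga
H2AC4: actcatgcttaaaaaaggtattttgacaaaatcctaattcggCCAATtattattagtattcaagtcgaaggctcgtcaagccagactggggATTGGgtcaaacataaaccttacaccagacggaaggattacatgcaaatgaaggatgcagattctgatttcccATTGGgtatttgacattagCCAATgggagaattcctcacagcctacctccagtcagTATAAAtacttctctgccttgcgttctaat
HLA-DMB: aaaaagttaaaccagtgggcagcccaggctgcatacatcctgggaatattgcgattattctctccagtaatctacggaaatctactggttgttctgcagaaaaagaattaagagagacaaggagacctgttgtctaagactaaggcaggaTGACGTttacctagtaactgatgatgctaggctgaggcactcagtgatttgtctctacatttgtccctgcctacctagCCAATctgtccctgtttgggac

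The MSH5 window is chr6:31739755-31740004 on the plus strand, and the PBX2 window is chr6:32190203-32190452 on the minus strand. The EEF1A1 window is chr6:73521033-73521282 (minus), and the SENP6 window is chr6:75601630-75601879 (plus). The PHF10 window is chr6:169724501-169724750 (minus), the MYB window chr6:135181058-135181307 (plus) and the IFNGR1 window chr6:137219386-137219635 (minus). The H4C7 window is chr6:26246997-26247246, the H2AC4 window chr6:26033619-26033868 and the HLA-DMB window chr6:32941029-32941278, all on the minus strand. SENP6 held 6 GC boxes and PHF10 held 7, with G and C at 77.2% and 86.4% of bases. H4C7 and H2AC4 held a TATA box each, and G and C made up 38.4% and 40.4% of their bases. H2AC4 also held 4 CCAAT boxes. HLA-DMB and IFNGR1 held 1 cyclic AMP response core each. No E-box was present in the 10 windows.

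Of the 1033 protein-coding genes of chromosome 6 with a known strand, 850 (82.3%) had a RefSeq promoter start within 1 kb of the gene record's 5′ end. Among these 850, a GC box was present in 55.1%, a CCAAT box in 38.7%, an ETS core in 16.4%, a TATA box in 15.2%, a cyclic AMP response core in 9.76% and an E-box in 6.59%. Over 27326 genes of the whole RefSeq table these shares were 41.6%, 32.9%, 14.8%, 11.3%, 7.28% and 6.33%. The promoters were then grouped by peak. The median GC content was 61.2% for the 158 promoters with a peak in both lists, 58.4% for the 157 with a combination peak only, 60.4% for the 69 with an OTX015 peak only and 60% for the 466 with neither. These medians lay close together beside the spread, which ran from 48.4% to 68.3% between the quartiles of all 850. E-boxes were present in 4 of 157 promoters with a combination peak only and in 12 of 69 with an OTX015 peak only. TATA boxes were present in 22 of 157 promoters with a combination peak only and in 4 of 69 with an OTX015 peak only. These motif counts were picked out after they were seen and carry no test.

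Peaks covered more of chromosome 6 with the combination than with OTX015 alone, and both arms showed this to about the same degree. The peaks lay over 4777 kb (2.80%) of the chromosome with the combination and over 2162 kb (1.27%) with OTX015, a ratio of 2.21. On 6p, 4.28% of the sequence was covered with the combination and 1.96% with OTX015 (ratio 2.18). On 6q, 2.0% was covered with the combination and 0.889% with OTX015 (ratio 2.24). The 18 chromosomes left after the 6 most covered ones (chromosome 6 included) were set aside had 0.315% of their length covered with the combination and 0.317% with OTX015, a ratio of 0.996. Chromosome 13 had a ratio of 1.72, chromosome 19 of 1.33, chromosome 20 of 1.31 and chromosome 5 of 1.12. Chromosome 8 had the same ratio as chromosome 6, 2.21, on denser cover (17.9% with the combination and 8.07% with OTX015). The number of copies of chromosome 6 in these cells was not measured.

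The direction of this difference depends on how the lists are set on 1 scale. The files give no read numbers. The background solved from the lowest peaks of each list was 1.47 fragments per base for the combination and 0.764 for OTX015, so the lowest accepted peak stood 4.76 times over background with the combination and 6.54 times with OTX015. With the combination list reduced to as many peaks genome-wide as the OTX015 list, the cover ratio of chromosome 6 was 1.44, and it was 0.702 on the 18 chromosomes. With the same enrichment of 6.54 asked of both lists, 111 combination peaks and all 5434 OTX015 peaks of chromosome 6 were left and the ratio was 0.0724, against 0.106 on the 18 chromosomes. This bound is the OTX015 list's own floor, so by construction it removes combination peaks alone. Every count of genes or bins given below as more covered with the combination shares this limit: under the common enrichment 9 gene loci of chromosome 6 were more covered with the combination and 836 less. More acetylated copies per cell and more acetylated cells cannot be told apart in bulk chromatin.

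The short arm was the denser arm in both lists. Per base, 6p was covered 2.15 times as much as 6q with the combination and 2.21 times as much with OTX015. It held 601 protein-coding genes, or 10.1 per Mb, against 432 genes, or 3.89 per Mb, on 6q. The short arm had 53.6% of all covered bases with the combination and 54.3% with OTX015. The peaks were short on both arms. Median width was 293 bp with the combination and 262.5 bp with OTX015, and 18 combination and 12 OTX015 peaks were 5 kb or wider. Of the wide peaks, 15 combination and 8 OTX015 peaks were on 6p.

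**Figure D1:**
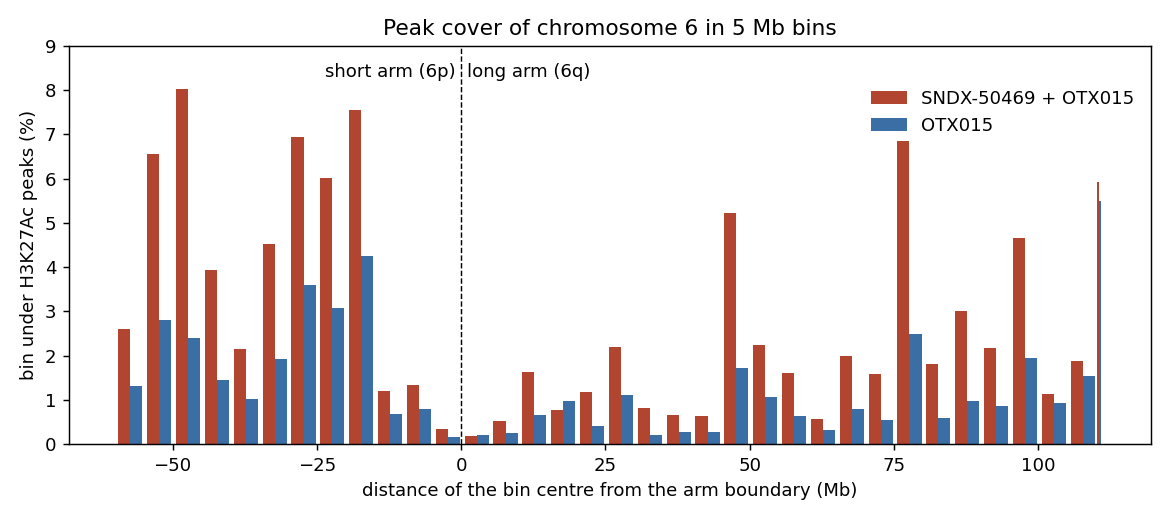
Share of each 5 Mb bin of chromosome 6 under H3K27Ac peaks, by distance of the bin centre from the arm boundary; red bars are SNDX-50469 plus OTX015 and blue bars OTX015, 1 library each, and the thin pair at the right is the short bin at the tip of 6q. The bins next to the boundary are nearly empty, and 33 of 35 bins have the higher bar with the combination.

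In 5 Mb bins, acetylation followed the same landscape in both lists. Of 35 bins, 33 were more covered with the combination and 2 less, where 53.9% of the bins with cover genome-wide were more covered with the combination. The median ratio of cover was 2.31, with a range of 0.796 to 3.76. The cover of the 35 bins in the 2 lists had a Spearman correlation of 0.927. Over the 34 full bins, cover correlated with the number of genes in a bin at 0.713 with the combination and 0.694 with OTX015. These are descriptions over neighbouring stretches of 1 chromosome in 1 pair of libraries.

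The most covered bins of 6p lay at 10 to 15 Mb, 40 to 45 Mb and 30 to 35 Mb with the combination. The bin at 10 to 15 Mb was covered over 8.04% with the combination and 2.40% with OTX015. Its highest peak in both lists was nearest JARID2, but 335 kb from that start with the combination and 337 kb with OTX015. This peak was 6.91 kb wide with the combination and 11.6 kb with OTX015. The bin at 40 to 45 Mb, which holds TRERF1, CCND3 and BICRAL, was covered over 7.55% with the combination and 4.25% with OTX015. The bin at 30 to 35 Mb, most of the MHC and 165 genes, was covered over 6.95% with the combination and 3.60% with OTX015. OTX015 had its most covered 6p bins at 40 to 45 Mb, 30 to 35 Mb and 35 to 40 Mb. The bin at 10 to 15 Mb thus led with the combination and ranked lower with OTX015.

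On 6q the bin at 135 to 140 Mb, which holds MYB, AHI1, MAP3K5 and IFNGR1, was covered over 6.84% with the combination and 2.50% with OTX015. The tip of the arm, from 170 Mb to the end, was covered over 5.92% with the combination and 5.49% with OTX015, which made it the most covered bin of the OTX015 list. The bin at 105 to 110 Mb, with FOXO3 and CD164, was covered over 5.22% with the combination and 1.72% with OTX015. The 2 bins less covered with the combination were at 75 to 80 Mb, the SENP6 bin (0.777% with the combination and 0.975% with OTX015), and at 60 to 65 Mb beside the centromere (0.191% with the combination and 0.216% with OTX015). The bin at 90 to 95 Mb had the highest ratio, 3.76, on 3 genes and little cover (0.811% with the combination and 0.216% with OTX015).

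In the lists as deposited, more promoters of chromosome 6 met a peak with the combination than with OTX015. A promoter, taken as the protein-coding 5′ end with 1 kb either side, met a combination peak in 374 of 1033 genes (36.2%, Wilson 95% interval 33.3 to 39.2) and an OTX015 peak in 266 (25.8%, 23.2 to 28.5). Genome-wide 15.4% of promoters met a combination peak and 14.9% an OTX015 peak. These intervals cover counting over genes only. The gap depended on the size of the lists: with equal numbers of peaks 277 promoters of chromosome 6 met a combination peak and 266 an OTX015 peak. With a −log10 q of at least 2, each list had a peak at 96. A peak in the combination list alone was found at 188 promoters (18.2%), where the genome-wide share was 6.34%. A peak in the OTX015 list alone was found at 80 promoters (7.74%), where the genome-wide share was 5.89%. Both lists had a peak at 186 promoters and neither had one at 579. On 6p, 250 of 601 promoters met a combination peak and 170 an OTX015 peak. On 6q, 124 of 432 promoters met a combination peak and 96 an OTX015 peak. Among the 186 shared promoters, 104 had more covered bases with the combination and 78 had fewer. The split was similar genome-wide: of 1776 shared promoters, 942 had more and 790 had fewer.

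In the lists as deposited, the cover ratio was lower near gene starts than away from them. Within 1 kb of a protein-coding 5′ end it was 1.34 (201.3 kb with the combination and 149.7 kb with OTX015), from 1 to 10 kb it was 2.20, and beyond 10 kb it was 2.29. The ratio within 1 kb was 1.45 on 6p and 1.19 on 6q. On the 18 other chromosomes the ratios were 0.837 within 1 kb, 1.05 from 1 to 10 kb and 1.00 beyond. When only peaks at a −log10 q of 2 or more were kept, the chromosome 6 ratio was 0.973 within 1 kb and 2.34 beyond 10 kb, and with equal numbers of peaks it was 1.11 within 1 kb and 1.45 beyond 10 kb. Under the common enrichment the order turned round, with 0.175 within 1 kb and 0.0588 beyond 10 kb. The cover within 1 kb of a start made up 4.21% of all cover with the combination and 6.92% with OTX015. Gene bodies held 51.3% of cover with the combination and 50.3% with OTX015, on 41.5% of the sequence.

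**Figure D2:**
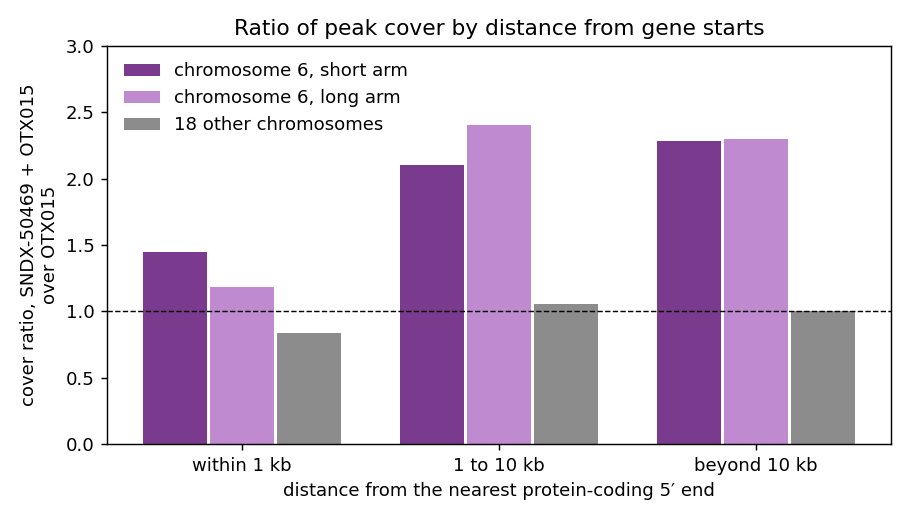
Ratio of covered bases, SNDX-50469 plus OTX015 over OTX015, in 3 classes of distance from the nearest protein-coding 5′ end, for both arms of chromosome 6 and for 18 other chromosomes; the dashed line marks equal cover. On chromosome 6 the bars within 1 kb (1.45 on 6p and 1.19 on 6q) are below those further out (2.1 to 2.4). On the other chromosomes the bar within 1 kb (0.837) is also below those further out (1.05 and 1.00).

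Few of the peaks met a peak of the other list. Of the combination peaks 1174 (9.63%, Wilson 95% interval 9.12 to 10.2) met an OTX015 peak by at least 1 base, and of the OTX015 peaks 1175 (21.6%, 20.5 to 22.7) met a combination peak. Genome-wide 21.03% of combination and 33.3% of OTX015 peaks met the other list. Chromosome 8 had high shares (27.7% of combination and 49.9% of OTX015 peaks). On the 18 less covered chromosomes 18.6% of combination and 20.2% of OTX015 peaks did, so the OTX015 share of chromosome 6 was close to theirs. On 6p, 12.4% of combination and 28.1% of OTX015 peaks met the other list, and on 6q 6.99% of combination and 15.3% of OTX015 peaks did. The strong peaks were shared: all 8 combination peaks and all 12 OTX015 peaks with a −log10 q of at least 5, and all 18 combination and all 12 OTX015 peaks of 5 kb or more. Strong peaks sat at promoters in 2 of 8 cases with the combination and in 7 of 12 with OTX015. Among peaks with a −log10 q of at least 2, 83 of 1125 combination peaks (7.38%) and 82 of 326 OTX015 peaks (25.2%) were at a promoter.

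The leading peaks of 6p were largely the same regions in both lists. The peak over CLIC1, an intracellular chloride channel gene, and the start of its neighbour MSH5, a meiotic recombination gene, had a fold enrichment of 6.93 over 7.32 kb with the combination and 6.35 over 6.19 kb with OTX015. A peak within BICRAL, a subunit gene of a BRD9-containing BAF complex, had a fold of 6.65 with the combination and 6.87 with OTX015. BRD2, which encodes a BET protein and thus a target of OTX015, had a peak over its start with a fold of 6.28 with the combination and 5.63 with OTX015. The widest 6p peak of each list lay within TRERF1, a zinc finger regulator gene: 11.5 kb at a fold of 5.72 with the combination and 13.7 kb at 6.33 with OTX015. The peak that ran from just before the start of PBX2, a homeobox cofactor of HOX and MEIS proteins, into GPSM3 had a fold of 5.15 with the combination and 6.15 with OTX015. The GC-rich PBX2 and MSH5 windows printed above lie at these 2 leading promoter peaks. Each fold is relative to its own library's background, and the background differed 1.92-fold, so folds rank peaks within a list. As multiples of the solved background, the CLIC1 peak stood at 10.97 with the combination and 13.4 with OTX015. Such multiples take the background as the same at every peak of a list, which was not checked.

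The leading peaks of 6q differed more. With the combination, the highest fold was 6.70, in a 9.85 kb peak over the 3′ end of AHI1, 103 kb from the start of MYB. The OTX015 list had a 5.10 kb peak of fold 6.13 within it. AHI1 is a cilium gene, and whether the region acts on MYB was not tested. A peak 252 kb from the start of CITED2 was shared, at a fold of 5.66 with the combination and 5.36 with OTX015. The 8 highest combination peaks of 6q also held narrow ones nearest SGK1, SASH1, IPCEF1 and KHDC1L. These were 0.114 to 0.204 kb wide and met no OTX015 peak. With OTX015, the 2 highest 6q folds were at promoters. EEF1A1, the translation elongation factor gene, had a promoter fold of 4.63 with the combination and 9.05 with OTX015. SENP6, a SUMO protease gene, had 3.95 with the combination and 8.77 with OTX015. In multiples of the solved background, under the same assumption, the EEF1A1 peak stood at 7.10 with the combination and 19.6 with OTX015. The SENP6 peak stood at 5.97 with the combination and 18.9 with OTX015. EEF1A1 has many near-identical pseudogene copies, so the reads given to it are uncertain. ARID1B, a BAF subunit gene, had a peak beside its start of fold 5.06 with the combination and 6.18 with OTX015. The OTX015 list also led at MYB (4.33 with the combination and 5.95 with OTX015), PHIP, a bromodomain protein gene (4.20 with the combination and 5.85 with OTX015), and MTO1, a mitochondrial tRNA modification gene (3.52 with the combination and 5.82 with OTX015). CD164, a sialomucin gene of hematopoietic progenitors, was the reverse case in rank: its fold was 4.63 with the combination, which placed it among the 5 leading 6q promoters of that list, and 4.50 with OTX015.

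Over whole loci, the gene body with 10 kb either side, most genes of chromosome 6 were more covered with the combination. Of 1033 loci, 996 had cover in at least 1 list, against 12976 of 19708 genome-wide. The trait was not particular to chromosome 6: 629 of 681 loci of chromosome 8 and 308 of 331 of chromosome 13 had cover. Of these 996, 827 (83.0%) were more covered with the combination and 168 less, where the genome-wide share was 59.3%. On 6p the counts were 485 more and 91 less, and on 6q 342 more and 77 less. The median difference was 1.23 kb. With equal numbers of peaks 629 loci were more covered with the combination and 337 less. Within 10 kb of the 5′ end, 728 of 912 genes with cover (79.8%) were more covered with the combination, where the genome-wide share was 61.1%.

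**Figure D3:**
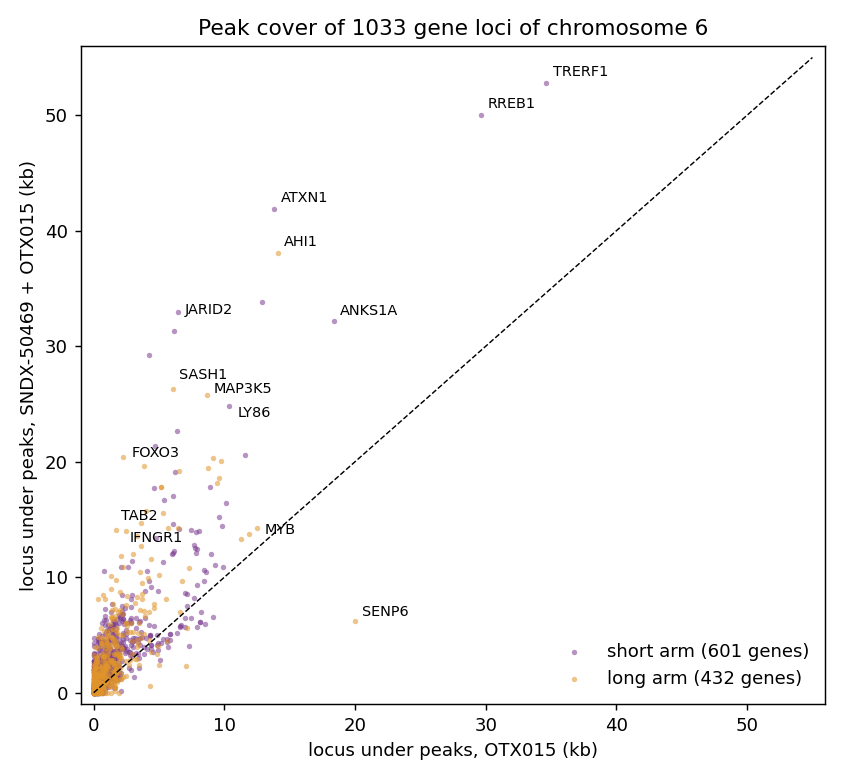
Bases under peaks at each of 1033 gene loci of chromosome 6 (gene body with 10 kb either side), SNDX-50469 plus OTX015 on the vertical axis and OTX015 on the horizontal axis, both in kb, with 1 point per gene and the dashed line at equal cover. Most points lie above the line, TRERF1 and RREB1 are highest in both lists, and SENP6 lies far below the line.

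The most covered loci of 6p were long genes and led both lists. TRERF1 was covered over 52.8 kb with the combination and 34.6 kb with OTX015. RREB1, a RAS-responsive zinc finger factor gene, was covered over 49.996 kb with the combination and 29.6 kb with OTX015. ATXN1, a transcriptional co-regulator gene, had 41.9 kb with the combination and 13.8 kb with OTX015. FARS2, a mitochondrial phenylalanine tRNA synthetase gene, had 33.8 kb with the combination and 12.9 kb with OTX015. These 4 loci were among the 5 most covered of both lists. JARID2, an accessory subunit gene of PRC2, completed the combination list (33.0 kb with the combination and 6.46 kb with OTX015), and ANKS1A, an adaptor gene, the OTX015 list (32.2 kb with the combination and 18.4 kb with OTX015).

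The most covered loci of 6q overlapped in AHI1 alone. AHI1 was covered over 38.04 kb with the combination and 14.1 kb with OTX015. The combination list went on with SASH1, a scaffold gene (26.3 kb with the combination and 6.09 kb with OTX015), MAP3K5, the stress kinase ASK1 (25.8 kb with the combination and 8.66 kb with OTX015), FOXO3, a forkhead factor of stress and survival (20.4 kb with the combination and 2.28 kb with OTX015), and the gene record LOC112267968. The OTX015 list went on with SENP6, MYB, SYNJ2 and RPS6KA2. SENP6 was covered over 6.22 kb with the combination and 20.0 kb with OTX015, which made it the most covered 6q locus of the OTX015 list. MYB was covered over 14.2 kb with the combination and 12.5 kb with OTX015. SYNJ2, an inositol phosphatase gene, had 13.8 kb with the combination and 11.9 kb with OTX015, and RPS6KA2, a ribosomal S6 kinase gene, had 13.3 kb with the combination and 11.2 kb with OTX015. With equal numbers of peaks both genes were less covered with the combination.

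**Figure D4:**
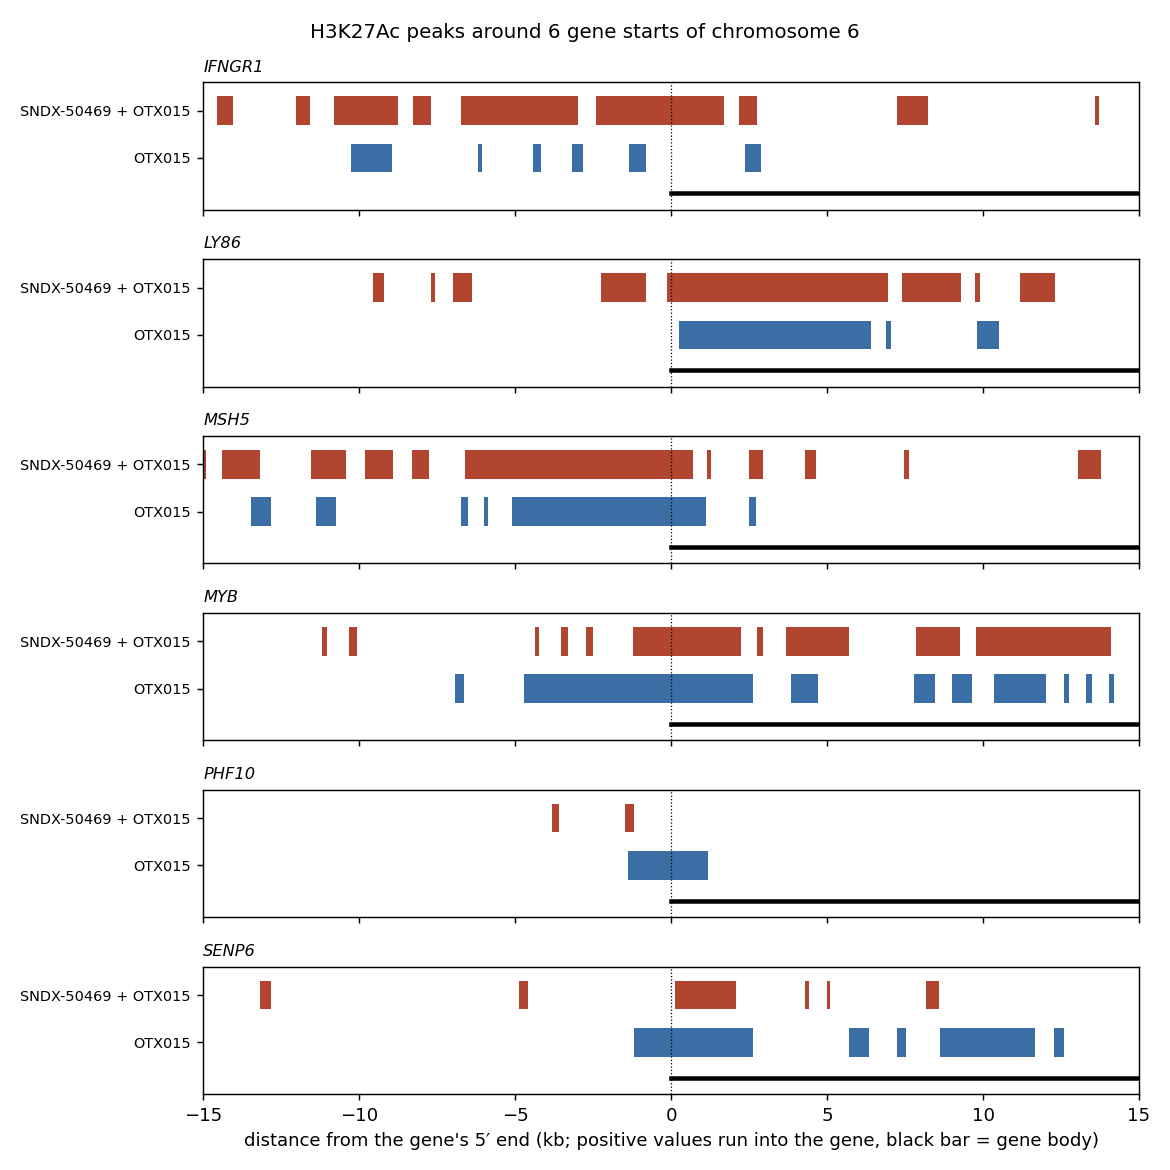
H3K27Ac peaks within 15 kb of 6 gene starts of chromosome 6; each bar is a peak of the SNDX-50469 plus OTX015 list (red, upper lane) or of the OTX015 list (blue, lower lane), distances run in the direction of transcription, and the black line is the gene body. IFNGR1 and LY86 have more covered bases in the upper lane, MSH5 has a wide peak in both lanes, and at PHF10 and SENP6 the start itself is covered in the lower lane alone.

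Genes with more cover around their 5′ end with the combination included several immune genes. IFNGR1, the ligand-binding chain of the interferon gamma receptor, was covered over 11.3 kb of its 5′ window with the combination and 2.86 kb with OTX015, and its promoter over 2.0 kb with the combination and 0.186 kb with OTX015. In multiples of the solved background its promoter peak stood at 5.46 with the combination and 6.54 with OTX015. The OTX015 value is the floor of its own list, and the combination list reaches down to 4.76. These values therefore cannot rank the heights of the peaks. On 6p, DDAH2, an arginine metabolism gene of the MHC class III region, had 12.98 kb with the combination and 6.99 kb with OTX015. LST1, a leukocyte gene beside TNF, had 13.3 kb with the combination and 7.83 kb with OTX015. LY86, which encodes the MD-1 partner of the receptor RP105 on myeloid and B cells, had 11.7 kb with the combination and 6.52 kb with OTX015. C6orf47 and TEAD3, a Hippo pathway factor gene, completed the 6p list. On 6q, MAP3K5 had 5.93 kb with the combination and 1.24 kb with OTX015. TRAF3IP2, an adaptor gene of interleukin 17 signalling, had 4.62 kb with the combination and 0 kb with OTX015. Its promoter peak had a fold of 3.24, near that of the lowest peaks of the combination list (3.24). FOXO3 had 5.21 kb with the combination and 0.862 kb with OTX015, and PNLDC1, a piRNA trimming gene, had 4.44 kb with the combination and 0.492 kb with OTX015.

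Genes with less cover around their 5′ end with the combination were led by SENP6 (2.94 kb with the combination and 6.16 kb with OTX015). The SENP6 promoter was covered over 0.873 kb with the combination and over its whole 2.0 kb with OTX015. PHF10, a subunit gene of the PBAF remodeller, had no promoter peak with the combination and a promoter covered over 2.0 kb with OTX015, at a fold of 4.66. Its 5′ window was covered over 0.506 kb with the combination and 2.59 kb with OTX015. The SENP6 and PHF10 windows are the 2 most GC-rich of the 10 promoters shown, but both were added after their values were seen. Over the matched promoters the median GC content was 60.4% with an OTX015 peak only, 58.4% with a combination peak only and 60% with neither. The MYB 5′ window was covered over 7.99 kb with the combination and 9.85 kb with OTX015, although its promoter was fully covered in both lists. PHIP had 2.56 kb with the combination and 4.23 kb with OTX015, and LOC124901355 had 0 kb with the combination and 1.94 kb with OTX015. On 6p the 5 genes were FOXP4, a forkhead factor gene (4.65 kb with the combination and 7.79 kb with OTX015), VWA7 (3.88 kb with the combination and 6.72 kb with OTX015), and the histone genes H2AC4, H3C11 and H2BC12. Over the gene body with 50 kb either side, PHF10, FOXP4, VWA7, H2AC4 and H2BC12 were more covered with the combination.

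Some promoters had a peak in 1 list alone. With the combination alone, ARID1B, C6orf47 and H4C7 had promoter peaks of fold 5.06, 4.36 and 3.98. With OTX015 alone, the highest folds were at TEAD3 (4.97), the gene record LOC124901225 (4.93), STX11, a SNARE gene of cytotoxic granule release (4.87), RPL10A, a ribosomal protein gene (4.72), and PHF10 (4.66). The names other than ARID1B, C6orf47, H4C7, TEAD3 and PHF10 were chosen after their values were seen. The ARID1B peak touched 0.093 kb of the promoter and lay mostly past it, and the OTX015 list had a peak at the same place, so the gene differed by the edge of a peak.

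**Figure D5:**
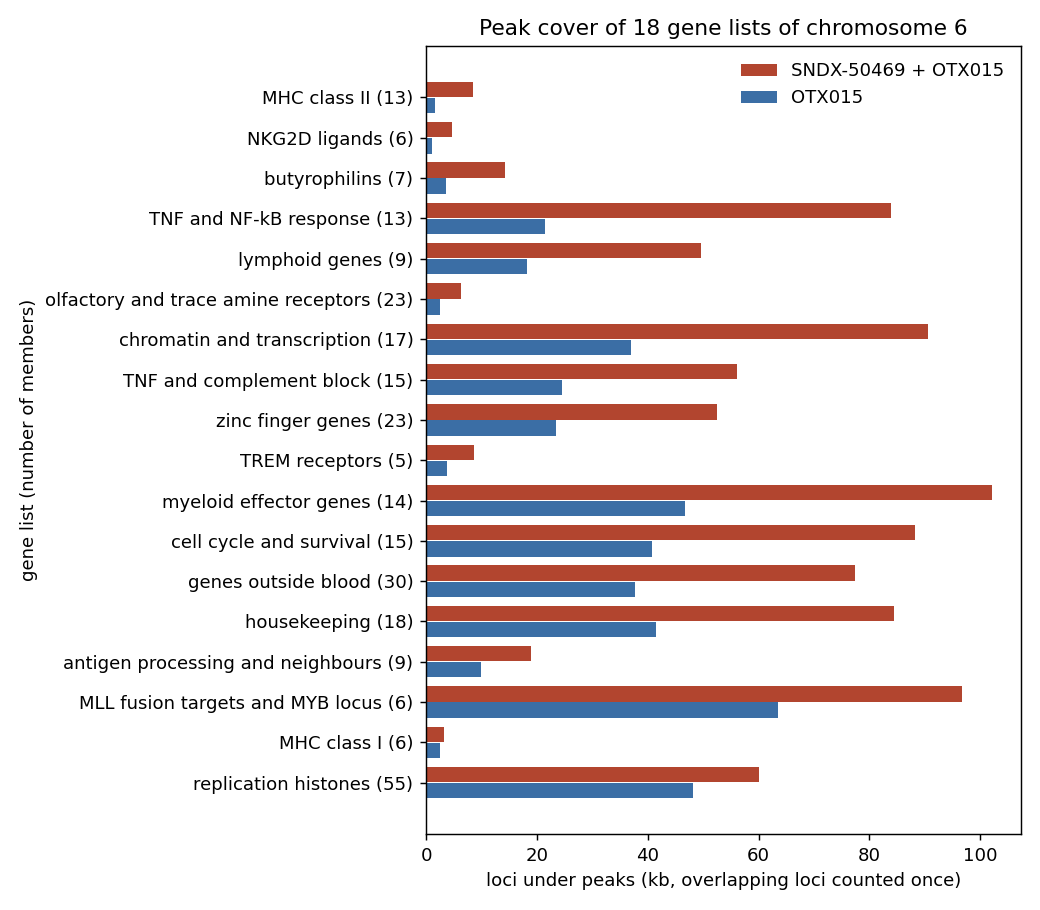
Bases under peaks over the loci of 18 gene lists of chromosome 6, in kb, with overlapping loci counted once; red bars are SNDX-50469 plus OTX015 and blue bars OTX015, and lists run from the highest ratio at the top to the lowest. Every list has the longer bar with the combination, and replication histones and MHC class I have the lowest ratios.

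Gene lists of chromosome 6 were described by counts beside the 83.0% of all its loci more covered with the combination. All 13 genes of the TNF and NF-kB response were more covered with the combination, over 83.9 kb with the combination and 21.5 kb with OTX015. TAB2, an adaptor of the TAK1 kinase, had 13.98 kb with the combination and 2.51 kb with OTX015. BACH2, a repressor of B and T cell differentiation, had 13.6 kb with the combination and 3.29 kb with OTX015. TNFAIP3, the NF-kB feedback inhibitor A20, had 8.12 kb with the combination and 3.72 kb with OTX015. IER3, an immediate early gene, had 5.78 kb with the combination and 1.46 kb with OTX015. With equal numbers of peaks 11 of the 13 were more covered with the combination and 2 less.

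Of 15 genes of the TNF and complement block on 6p, 14 were more covered with the combination and C4B had no cover in either list. The block was covered over 56.02 kb with the combination and 24.5 kb with OTX015. TNF had 12.8 kb with the combination and 7.69 kb with OTX015, LTA 16.4 kb with the combination and 10.2 kb with OTX015, and LTB 15.2 kb with the combination and 9.59 kb with OTX015. These 3 genes are neighbours that encode the TNF and lymphotoxin cytokines, and their loci share peaks. C4A and C4B are near-identical copies, so their values are uncertain.

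The HLA genes had little cover in either list. Of 13 MHC class II genes, 9 were more covered with the combination, HLA-DOB was less covered, and 3 had none. They were covered over 8.53 kb in all with the combination and 1.69 kb with OTX015. HLA-DMB and HLA-DMA, which encode the chains of the class II peptide exchanger, had the most with the combination (4.02 kb and 3.45 kb, over loci that overlap) and 0 kb with OTX015. With equal numbers of peaks 5 class II genes were more covered with the combination and 3 less. Of 6 MHC class I genes, HLA-E had 2.43 kb with the combination and 0.747 kb with OTX015, HLA-F had 0.439 kb with the combination and 1.55 kb with OTX015, and HLA-C and HLA-G had none. HLA genes differ between genomes and resemble each other, so reads may be lost or shared there. A list of 9 further genes held 5 of antigen processing (TAP1, TAP2, TAPBP, PSMB8 and PSMB9) and 4 other genes of the MHC (BRD2, RXRB, MICA and MICB). All 9 except MICB were more covered with the combination, over 19.01 kb in all with the combination and 9.93 kb with OTX015. TAPBP, the tapasin gene, had 6.56 kb with the combination and 2.02 kb with OTX015, and the peptide transporter gene TAP2 had 4.43 kb with the combination and 0.779 kb with OTX015.

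Many replication histone genes had a promoter peak. Of 55 genes, all on 6p, 48 had a promoter peak with the combination and 35 with OTX015, 34 in both lists. Over all 6p promoters the shares were 41.6% with the combination and 28.3% with OTX015. Neighbouring histone starts often shared 1 peak, so these are not separate counts. Their loci were covered over 60.02 kb with the combination and 48.2 kb with OTX015, the lowest ratio of the 18 lists (1.25). Of the 55, 34 were more covered with the combination and 21 less. H2BC10 had 2.70 kb and H4C7 2.04 kb with the combination, and both had 0 kb with OTX015. H3C11 had 6.14 kb with the combination and 8.17 kb with OTX015, and H2AC4 had 3.99 kb with the combination and 5.66 kb with OTX015. With equal numbers of peaks 23 were more covered with the combination and 30 less. The genes are near-identical copies in clusters, so reads may be split among them and neighbouring loci share peaks.

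Of 6 genes listed as MLL fusion targets or genes of the MYB locus, SENP6 was less covered with the combination and the other 5 more. RUNX2, a runt domain factor gene, had 14.5 kb with the combination and 9.79 kb with OTX015. HBS1L, next to MYB, had 4.56 kb with the combination and 0.568 kb with OTX015. ARID1B had 19.2 kb with the combination and 6.52 kb with OTX015. The study names MYB and SENP6, so for these genes the list is not independent of its samples.

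Of 15 cell cycle and survival genes, 12 were more covered with the combination. CCND3, the cyclin D3 gene, had 14.6 kb with the combination and 6.10 kb with OTX015, and CDK19, a Mediator kinase gene, had 11.6 kb with the combination and 4.36 kb with OTX015. The exceptions were the CDK inhibitor gene CDKN1A (5.70 kb with the combination and 7.01 kb with OTX015), the kinase gene PIM1 (3.31 kb with the combination and 3.87 kb with OTX015) and the apoptosis effector gene BAK1 (1.52 kb with the combination and 1.82 kb with OTX015).

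Of 14 myeloid effector genes, 12 were more covered with the combination, led by LY86 (24.9 kb with the combination and 10.4 kb with OTX015) and CRYBG1 (18.5 kb with the combination and 9.61 kb with OTX015). Of 17 genes of chromatin and transcription, 14 were more covered with the combination, led by JARID2 and by TFEB, a lysosome biogenesis factor (12.0 kb with the combination and 5.97 kb with OTX015). PHIP, HDAC2 and ASF1A were the 3 less covered. With a −log10 q of at least 2, CRYBG1, CDK19, LTA and TRAF3IP2 were less covered with the combination. Of 18 housekeeping genes, 16 were more covered with the combination, with NUDT3, CLIC1 and SOD2 ahead, and VARS1, the valine tRNA synthetase gene, had 5.98 kb with the combination and 8.54 kb with OTX015. As a check of the label, all 10 myeloid markers had a peak in their locus with the combination and 9 of 10 with OTX015. The summed cover of the myeloid markers was 60.8 kb with the combination and 46.5 kb with OTX015. Of 4 T cell markers, 2 had a peak in each list (0.666 kb with the combination and 1.16 kb with OTX015), and CD2 and CD3E had none. Of 4 B cell markers, 3 had a peak with the combination and 1 with OTX015 (5.96 kb with the combination and 2.72 kb with OTX015). Of 4 red cell markers, 1 had a peak in each list (0.551 kb with the combination and 0.499 kb with OTX015), and GATA1 and HBB had none. Of 4 epithelial markers, 1 had a peak with the combination (0.116 kb) and none with OTX015.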

How the data were processed

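H3K27Ac ChIP libraries of MOLM13 cells, 1 per treatment, were made by Tn5 tagmentation. Per the submitters' processing notes, the tools were bcl2fastq 2.17, Trimmomatic 0.33, Bowtie 1.1.2, MACS2 2.1.0 and deepTools, on GRCh38. The authors deposited 1 broad peak list per library, called per sample. The deposited score was the whole-number part of 10 times the −log10 q in 86206 of 86207 combination and 55849 of 55852 OTX015 peaks. The deposited fold is the ratio of pileup to background averaged over a peak, and the deposited −log10 p and −log10 q come from the same caller. Read numbers are not given in the sources used here, so depth is unknown. A background was solved from the fold and −log10 p of the lowest peaks under a Poisson model with a pseudocount of 1. It was taken as the same at every peak of a list, which was not checked. A deeper library lets weaker enrichment pass the caller, which affects every count and length.

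Cover is the union of peaks. Gene positions came from RefSeq GRCh38.p14 and strands from GENCODE (symbol and chromosome only). After 7 gene records on alternate sequences (HLA-DRB3 among them) were left out, 1033 of 1042 protein-coding genes of chromosome 6 had a single strand. Promoters are 5′ ends with 1 kb either side, loci are gene bodies with 10 kb either side, and an overlap is 1 base or more. Named genes are, per arm and list, the 5 most covered loci at least 50 kb apart and the 5 promoters of highest fold. Added to these are, per arm and direction, the 5 largest differences within 10 kb of the 5′ end at least 20 kb apart, and 3 members per gene list with the largest difference, with further members at 0 or highest. Members and lists were chosen with earlier results of these data known. Alternatives were a −log10 q of 2, equal peak numbers, a common enrichment, merged peaks, other bins, promoters and flanks, and a 50% overlap. Scripts ran in Python 3.11.15 with pandas 2.3.3, numpy 2.4.6, matplotlib 3.10.9 and scipy 1.17.1, and were tested on simulated data.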

Additional observations from a re-analysis of the deposited data

How the results depend on the processing

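Each treatment had 1 library, the depth is unknown, and no value has a replicate error, so the settings show only how far a value moves. No paired analysis was possible because each treatment had 1 library. The cover ratio, combination over OTX015, was 1.84 on 6p and 1.94 on 6q with a −log10 q of at least 2, 1.48 on 6p and 1.38 on 6q with equal numbers of peaks, 2.34 on 6p and 2.38 on 6q with peaks merged within 1 kb, and 2.18 on 6p and 2.26 on 6q without 55 to 65 Mb. The ratio of peak numbers was 3.36 on 6p and 3.56 on 6q with a −log10 q of at least 2, 1.33 on 6p and 1.27 on 6q with equal numbers, and 2.09 on 6p and 2.17 on 6q after merging. The same enrichment over background turned both round: cover ratios were 0.0892 on 6p and 0.0523 on 6q, and ratios of peak numbers were 0.0231 on 6p and 0.0178 on 6q. Under it 0 of 35 bins were more covered with the combination, 24 promoters met a combination peak, and 34.2% of combination peaks and 0.975% of OTX015 peaks met the other list. This follows from its construction, which keeps every OTX015 peak. Of 171 bins of 1 Mb, 144 were more covered with the combination and 25 less (84.2% more), and in 10 Mb bins 100% were more covered. Of 35 bins of 5 Mb, 28 were more covered with equal numbers of peaks and 32 with a −log10 q of at least 2. With a −log10 q of at least 2, 96 promoters met a combination peak and 96 an OTX015 peak, and 31.0% of OTX015 peaks met the other list. With equal numbers 12.4% of combination and 16.4% of OTX015 peaks did, and with an overlap of 50% of the shorter peak 7.75% of combination and 17.6% of OTX015 peaks did.

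Among 86 named loci, 74 were more and 12 less covered with the combination. The sign of the difference in kb, combination minus OTX015, changed at 13 with a −log10 q of at least 2: CDK19 -0.316, CRYBG1 -1.17, GPSM3 -0.732, H2BC12 2.995, H4C6 -0.238, LOC112267968 -0.829, LTA -0.534, MTO1 -0.483, PBX2 -0.732, TRAF3IP2 -0.025, VWA7 0.929, ZBTB24 -0.90 and ZNF318 -0.020. It changed at 4 with equal numbers: MAD2L1BP -0.0070, RPS6KA2 -4.04, SYNJ2 -0.923 and TREML1 -0.113. It changed at 6 with 50 kb either side: FBXO30 2.92, FOXP4 0.887, H2AC4 3.38, H2BC12 1.92, PHF10 1.78 and VWA7 7.55. It changed at 7 in the gene body alone: FOXP4 3.39, GPSM3 -0.604, H2AC4 0.164, HLA-E -0.044, HLA-F 0.257, LTB -0.162 and TREML2 0.128. The causes of these changes were not tested.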

Other observations

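Further gene lists of chromosome 6 had these values, beside the 83.0% of all its loci with cover that were more covered with the combination. Of 23 zinc finger genes, 20 were more covered with the combination, 2 less, and ZNF322 had no cover. ZBTB24, a DNA-binding regulator gene, had 6.51 kb with the combination and 1.35 kb with OTX015, and ZNF318 had 4.49 kb with the combination and 0.730 kb with OTX015. Of 7 butyrophilin genes, which encode immunoglobulin-like surface proteins that gamma delta T cells sense, 5 were more covered with the combination. BTN2A1 had 4.69 kb and BTN1A1 2.53 kb with the combination, and both had 0 kb with OTX015. BTN3A3 had 4.48 kb with the combination and 0.415 kb with OTX015. No butyrophilin promoter met a peak in either list. Of 6 NKG2D ligand genes on 6q, whose proteins mark stressed cells for natural killer cells, 4 were more covered with the combination and RAET1G and ULBP2 had no cover. Among 5 TREM receptor genes, TREM1, an amplifier of myeloid inflammation, had 6.67 kb with the combination and 0.843 kb with OTX015, and TREML2 had 1.22 kb with the combination and 1.91 kb with OTX015.

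Cover was also present at genes with little known use in blood cells. Of 30 such genes, 25 had cover in at least 1 list, and 17 were more covered with the combination and 8 less. Both shares were below those of the whole chromosome, where 996 of 1033 loci had cover and 83.0% of these were more covered with the combination. OPRM1, the mu opioid receptor gene, had 14.7 kb with the combination and 3.60 kb with OTX015. KCNQ5, a potassium channel gene of neurons and muscle, had 17.8 kb with the combination and 5.16 kb with OTX015. PKHD1, a kidney and bile duct gene, had 6.59 kb with the combination and 9.12 kb with OTX015. Of 23 olfactory and trace amine receptor genes, 20 had cover, over 6.26 kb in all with the combination and 2.48 kb with OTX015. Of 9 lymphoid genes, 8 were more covered with the combination. FYN, a T cell kinase gene, had 10.9 kb with the combination and 2.23 kb with OTX015, and PRDM1, a plasma cell regulator, had 7.27 kb with the combination and 1.6 kb with OTX015. With equal numbers of peaks 13 of the genes outside blood were more covered with the combination and 11 less, and 5 of the lymphoid genes more and 4 less. What part the density of short, weak peaks on this chromosome has in these values was not tested.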
